A study of Mus musculus with 3 samples.

Results

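The peaks described here lie 1 to 5 kb downstream of a transcription start site (TSS), in lists of chromatin-bound Smad3 and JMJD3 from mouse neural stem cells. A peak belonged to the group when the deposited distance from the closest TSS to its midpoint was above 1000 bp and at most 5000 bp in the direction of transcription. The Smad3 list held 6544 such peaks of 98086 and the JMJD3 list 3084 of 63154, which makes 9628 of 161240 peaks. Both libraries came from neural stem cells of wild-type mouse cerebral cortex, taken at stage e12.5 and grown with EGF at 20 ng/ml and FGF at 10 ng/ml. Both were treated with TGFb at 5 ng/ml for 30 minutes before chromatin immunoprecipitation and sequencing (ChIP-seq), 1 with an antibody to Smad3 and 1 with an antibody to JMJD3. An input library without antibody belongs to the same series and its list was not used here. With 1 library per antibody no value has a replicate error, and without an untreated library the effect of TGFb cannot be read from them.

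Smad3 is phosphorylated by the TGF-beta receptor, enters the nucleus with Smad4 and binds DNA together with the transcription factors already present in the cell. JMJD3, encoded by Kdm6b, removes methyl groups from lysine 27 of histone H3, the mark that Polycomb complexes place on silent genes. The first kilobases of a transcribed gene often hold enhancers of that gene or of its neighbours, and an intronic enhancer of Nes is a classical marker of neural progenitors.

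The sequences of the peaks themselves are not shown, because no genome of the files' build (mm9) was used. At some of the genes below, 1 Smad3 region ran from the promoter into the downstream interval, and at others the promoter had no peak at all, so promoters of both kinds are printed. They are the 250 bases before the start of the gene, from RefSeq on GRCm38.p6, 5′ to 3′ on the strand of the gene, with the Smad box CAGAC or its complement GTCTG in capitals. The promoter of Nes (intermediate filament of neural stem cells, chr3:87970843-87971092, + strand) and that of Id3 (an inhibitor of bHLH factors, chr4:136143572-136143821, + strand) had Smad3 and JMJD3 peaks. The promoter of Nab2 (a corepressor of Egr factors, chr10:127666704-127666953, - strand) also had peaks of both, and the Smad3 region over it ran into the downstream interval, where JMJD3 had no peak. The promoter of Hes7 (a bHLH repressor of the Notch pathway, chr11:69120203-69120452, + strand) had no peak in either list.
Nes: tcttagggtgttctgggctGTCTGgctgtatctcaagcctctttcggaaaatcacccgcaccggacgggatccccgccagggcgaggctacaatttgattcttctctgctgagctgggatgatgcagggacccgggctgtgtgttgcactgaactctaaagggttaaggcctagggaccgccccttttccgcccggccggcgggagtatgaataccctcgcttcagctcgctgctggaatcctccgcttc
Id3: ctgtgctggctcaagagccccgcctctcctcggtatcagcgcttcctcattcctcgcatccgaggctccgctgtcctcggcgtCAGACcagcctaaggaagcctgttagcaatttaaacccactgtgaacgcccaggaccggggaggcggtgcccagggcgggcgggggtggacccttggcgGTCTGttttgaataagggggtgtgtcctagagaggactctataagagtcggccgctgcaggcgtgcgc
Nab2: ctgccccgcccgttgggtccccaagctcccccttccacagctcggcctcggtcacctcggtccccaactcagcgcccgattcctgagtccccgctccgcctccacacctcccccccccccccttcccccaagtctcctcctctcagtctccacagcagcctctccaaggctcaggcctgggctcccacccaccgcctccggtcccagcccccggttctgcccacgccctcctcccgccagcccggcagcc
Hes7: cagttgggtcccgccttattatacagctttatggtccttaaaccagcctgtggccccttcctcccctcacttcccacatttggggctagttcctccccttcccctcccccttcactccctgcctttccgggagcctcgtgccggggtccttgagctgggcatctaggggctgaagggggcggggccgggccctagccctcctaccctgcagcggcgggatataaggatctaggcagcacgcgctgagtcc

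Nes held 1 Smad box, Id3 held 2, and Nab2 and Hes7 held 0 in this window. Across all 32851 promoters of the table, 42.2% held at least 1. An E box (CANNTG) occurred 2 times at Hes7 and not at the others, and 66.2% of all promoters held one. The AP-1 motif TGANTCA, the motifs GGCGCC and CACGTG and the palindromic Smad element occurred in none of the 4. Motifs were searched on both strands. A match is a description of the letters and not a bound site. Promoters of Kdm6b, Id1, Klf10, Hes1, Smad7, Ctgf, Skil and Cyr61 were not matched in the table.

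Smad3 peaks were more numerous relative to JMJD3 peaks in this interval than in the other distance classes. They made up 6.67% of the Smad3 list (95% CI 6.52 to 6.83) and 4.88% of the JMJD3 list (4.72 to 5.05). Intervals on shares are exact (Clopper-Pearson) and carry counting error alone, and the read depth behind each peak is unknown. Per JMJD3 peak there were 2.12 Smad3 peaks downstream, against 1.80 at 1 to 5 kb upstream, 1.57 within 1 kb of the TSS and 1.49 beyond 5 kb. Both lists held more peaks downstream than at the same distances upstream. For Smad3 the counts were 6544 downstream and 4345 upstream, a ratio of 1.51 (95% CI 1.45 to 1.57). For JMJD3 they were 3084 and 2412, a ratio of 1.28 (1.21 to 1.35). The Smad3 ratio was 1.32 among peaks that overlapped a JMJD3 peak and 1.72 among those that did not. Among JMJD3 peaks the corresponding ratios were 1.26 and 1.35. Differences between these ratios were not tested.

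**Figure D1:**
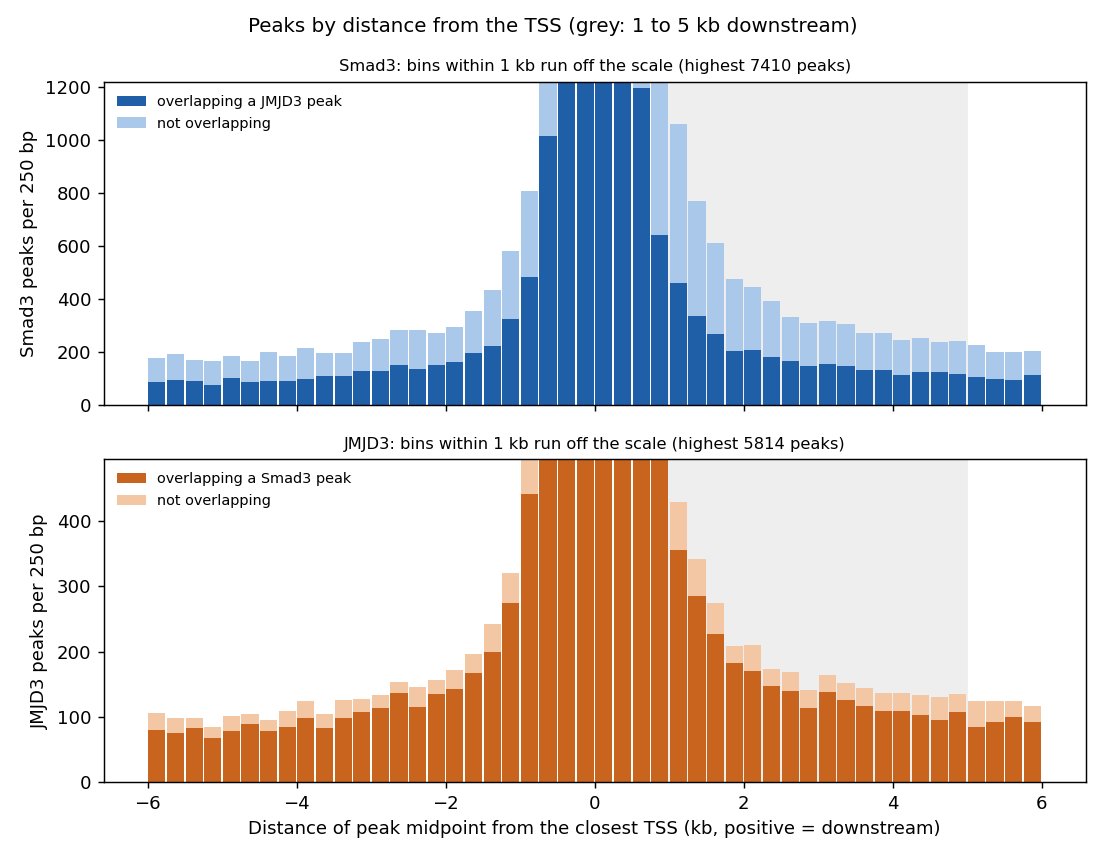
Number of Smad3 peaks (top) and JMJD3 peaks (bottom) per 250 bp of distance between peak midpoint and closest TSS, in kb, split by overlap with the other list; bins within 1 kb of the TSS run off the scale. In the grey downstream interval the Smad3 bars are taller than their upstream mirror images, mostly through peaks that do not overlap JMJD3, and the JMJD3 bars differ less.

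The downstream excess of Smad3 was largest next to the promoter window. Between 1 and 1.5 kb there were 1830 Smad3 peaks downstream and 1017 upstream, a ratio of 1.80, and between 4.5 and 5 kb there were 479 and 353, a ratio of 1.36. The JMJD3 counts were 772 and 558 in the nearest bin, a ratio of 1.38, and 266 and 207 in the farthest, a ratio of 1.29. Of the downstream peaks, 28.0% of Smad3 and 25.0% of JMJD3 lay in that nearest 500 bp. No step in density marked the limits of the group. In the 100 bp below 1 kb lay 523 Smad3 and 241 JMJD3 peaks, and in the 100 bp above it 449 and 188. At the outer limit, 97 Smad3 and 57 JMJD3 peaks lay in the last 100 bp inside 5 kb and 100 and 66 in the next 100 bp outside.

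Downstream Smad3 peaks coincided with JMJD3 less often than Smad3 peaks upstream or far from genes' starts, and for downstream JMJD3 peaks no difference from upstream ones was detected. Of the downstream Smad3 peaks, 3019 of 6544 shared at least 1 bp with a JMJD3 peak (46.1%, 95% CI 44.9 to 47.4), where the share over all Smad3 peaks was 60.2%. The share was 52.8% upstream, 70.9% within 1 kb of the TSS and 57.9% beyond 5 kb. Of the downstream JMJD3 peaks, 2529 of 3084 overlapped a Smad3 peak (82.0%, 80.6 to 83.4), where the share over all JMJD3 peaks was 81.4%. The JMJD3 share was 83.0% upstream, 93.4% within 1 kb and 76.7% beyond 5 kb. Peaks of 1 list often stood only 10 bp apart, so the classes were tested on regions, made by joining peaks of a list at most 10 bp apart. Smad3 regions overlapped JMJD3 in 42.8% of 4898 downstream cases and in 48.8% of 3300 upstream cases. The odds ratio was 0.785 (95% CI 0.718 to 0.859; two-sided Fisher exact test, p = 1.85e-07 adjusted over the 2 lists). JMJD3 regions overlapped Smad3 in 84.2% of 2242 downstream and 83.5% of 1777 upstream cases, an odds ratio of 1.05 (0.886 to 1.25, Fisher exact test, adjusted p = 0.574). That interval leaves room for a difference of either sign. The p-values compare regions within these libraries, and 22 Smad3 and 9 JMJD3 regions with peaks on both sides were left out. Joining Smad3 peaks at most 500 bp apart removed the difference (odds ratio 1.00, 0.909 to 1.11, Fisher exact test, unadjusted p = 0.961), and the same joining without regions that reached the promoter window gave 0.839 (0.749 to 0.941, unadjusted p = 0.00237).

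**Figure D2:**
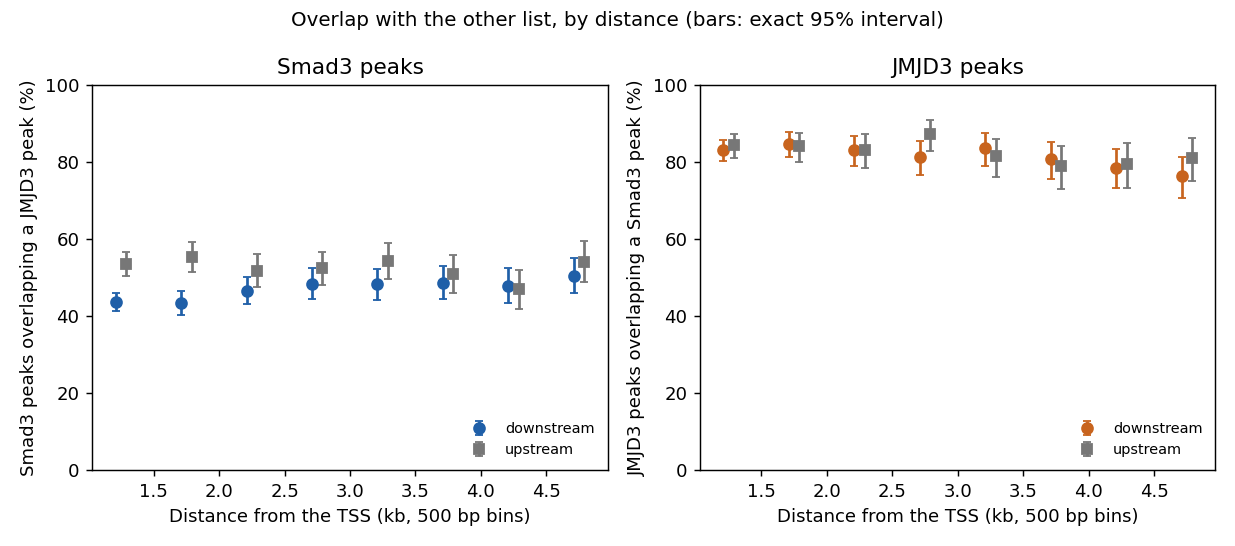
Share of Smad3 peaks overlapping a JMJD3 peak (left) and of JMJD3 peaks overlapping a Smad3 peak (right), in percent, by distance from the TSS in 500 bp bins, for downstream (circles) and upstream (squares) peaks with exact 95% intervals. Downstream Smad3 peaks lie at 43.7% and 43.4% in the bins nearest the TSS, where upstream ones lie at 53.6% and 55.3%; the JMJD3 symbols lie between 76.3% and 87.2% on both sides.

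Against regions beyond 5 kb, a contrast added after the data were seen, the lists differed in opposite directions. Smad3 regions overlapped JMJD3 in 42.6% of downstream and 52.9% of far cases (odds ratio 0.661, 0.623 to 0.702, Fisher exact test, adjusted p = 3.28e-42). JMJD3 regions overlapped Smad3 in 84.2% of downstream and 77.1% of far cases (odds ratio 1.58, 1.404 to 1.782, Fisher exact test, adjusted p = 1.59e-15). Both tests were two-sided and adjusted over the 2 lists. In 4 classes of width, from narrow to wide, the JMJD3 shares were 61.8%, 79.7%, 92.8% and 98.5% downstream. Far JMJD3 regions had 50.3%, 76.3%, 93.0% and 98.6%, so the shares were nearly equal among wide regions. Differences within these classes were not tested. By distance, the Smad3 overlap was 43.7% downstream against 53.6% upstream at 1 to 1.5 kb, and 50.5% (46.0 to 55.1) against 54.1% at 4.5 to 5 kb, and a change of this gap with distance was not tested. Where downstream peaks did overlap, they usually lay on one another closely. Of the shared Smad3 peaks 78.0% had a JMJD3 midpoint within 200 bp, with a median distance of 99.5 bp, and of the shared JMJD3 peaks 87.8% had a Smad3 midpoint that close, with a median of 80.0 bp. The unshared peaks were mostly not near misses: 21.3% of the Smad3 ones had a JMJD3 midpoint within 1 kb, and 39.1% of the JMJD3 ones had a Smad3 midpoint within 1 kb.

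Downstream Smad3 regions were narrower than downstream JMJD3 regions. Their median width was 440 bp (quartiles 320 to 680) over 4920 regions, against 670 bp (500 to 940) over 2251 JMJD3 regions. Upstream medians were 460 and 680 bp, promoter medians 640 and 810 bp, and medians beyond 5 kb 420 and 600 bp. A single peak made up 69.0% of the Smad3 and 61.4% of the JMJD3 regions, and the most fragmented ones held 15 and 8 peaks. Overlap climbed with width in each list. Among Smad3 regions it was 18.5% of 1318 in the narrowest of 4 width classes (40 to 321 bp) and 79.5% of 1234 in the widest (above 680 bp). The upstream shares in those classes were 23.6% and 86.4%. Among JMJD3 regions the downstream shares were 61.8% of 503 in the narrowest class and 98.5% of 658 in the widest, where upstream ones had 53.3% and 99.5%. Within 10 classes of width the Smad3 odds ratio of overlap was 0.774 (0.699 to 0.857), close to the value without them.

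Part of the downstream regions reached the promoter window. A region that came within 1 kb of the TSS held 21.4% of the Smad3 and 23.7% of the JMJD3 member peaks. Such Smad3 regions had a median width of 720 bp and overlapped JMJD3 in 60.0% of 993 cases, whereas those standing clear of the promoter window had 400 bp and 38.7% of 3927. For JMJD3 the widths were 870 and 621 bp and the overlaps 91.9% of 544 and 81.8% of 1707. Most member peaks lay inside the closest transcript, 89.3% for Smad3 and 91.2% for JMJD3, and 698 and 272 lay past its end. Exons and introns were not assigned, since no exon annotation on mm9 was used. Smad3 peaks past the end overlapped JMJD3 in 38.8% of cases (35.2 to 42.6), those inside in 47.0% (45.7 to 48.3). Short transcripts of at most 5 kb held 20.0% of the Smad3 and 15.8% of the JMJD3 member peaks, and Smad3 peaks there overlapped JMJD3 in 39.4% of cases against 49.9% in transcripts of 20 to 100 kb.

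Counted by gene, downstream Smad3 peaks were found at 3481 genes and JMJD3 peaks at 1956, with 1614 genes holding both. The shared genes were 46.4% of the Smad3 genes and 82.5% of the JMJD3 genes, and 1867 genes had Smad3 only and 342 JMJD3 only. Over 20949 coding genes, 15.6% had a downstream Smad3 peak, 8.75% a downstream JMJD3 peak and 7.25% both. At most of these genes the promoter was occupied too. Of the Smad3 genes 81.1% had a Smad3 peak within 1 kb of the TSS, and of the JMJD3 genes 68.6% had a JMJD3 peak and 80.0% a Smad3 peak there, where 73.1% and 57.1% of all 16428 genes named in the files had a Smad3 and a JMJD3 promoter peak. Over all coding genes, with or without any peak, those shares were 55.0% and 43.3%. The reverse was less common: 23.5% of genes with a Smad3 promoter peak and 14.3% of those with a JMJD3 promoter peak also had one downstream. A single member peak was the rule, at 58.5% of Smad3 genes and 63.3% of JMJD3 genes, and 209 and 31 genes had 5 or more. Each peak names only its closest TSS, so a peak between neighbouring genes is credited to 1 of them.

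Kdm6b, the gene that encodes JMJD3, held the widest downstream JMJD3 region of the list. The JMJD3 region spanned 4280 bp on chromosome 11 from 69221761 to 69226040 (mm9) and held 6 JMJD3 peaks. The widest Smad3 region at the gene, of 3391 bp from 69222511 to 69225901, lay inside its limits. Smad3 had 7 member peaks there and JMJD3 had 5, and every one overlapped the other list. Within 1 kb of the annotated start Smad3 had 2 peaks and JMJD3 had 0, the nearest JMJD3 midpoint being 1531 bp downstream. JMJD3 peaks near the gene that encodes it were thus listed inside the transcript and, with 3 peaks, upstream of it, and not at its annotated start.

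**Figure D3:**
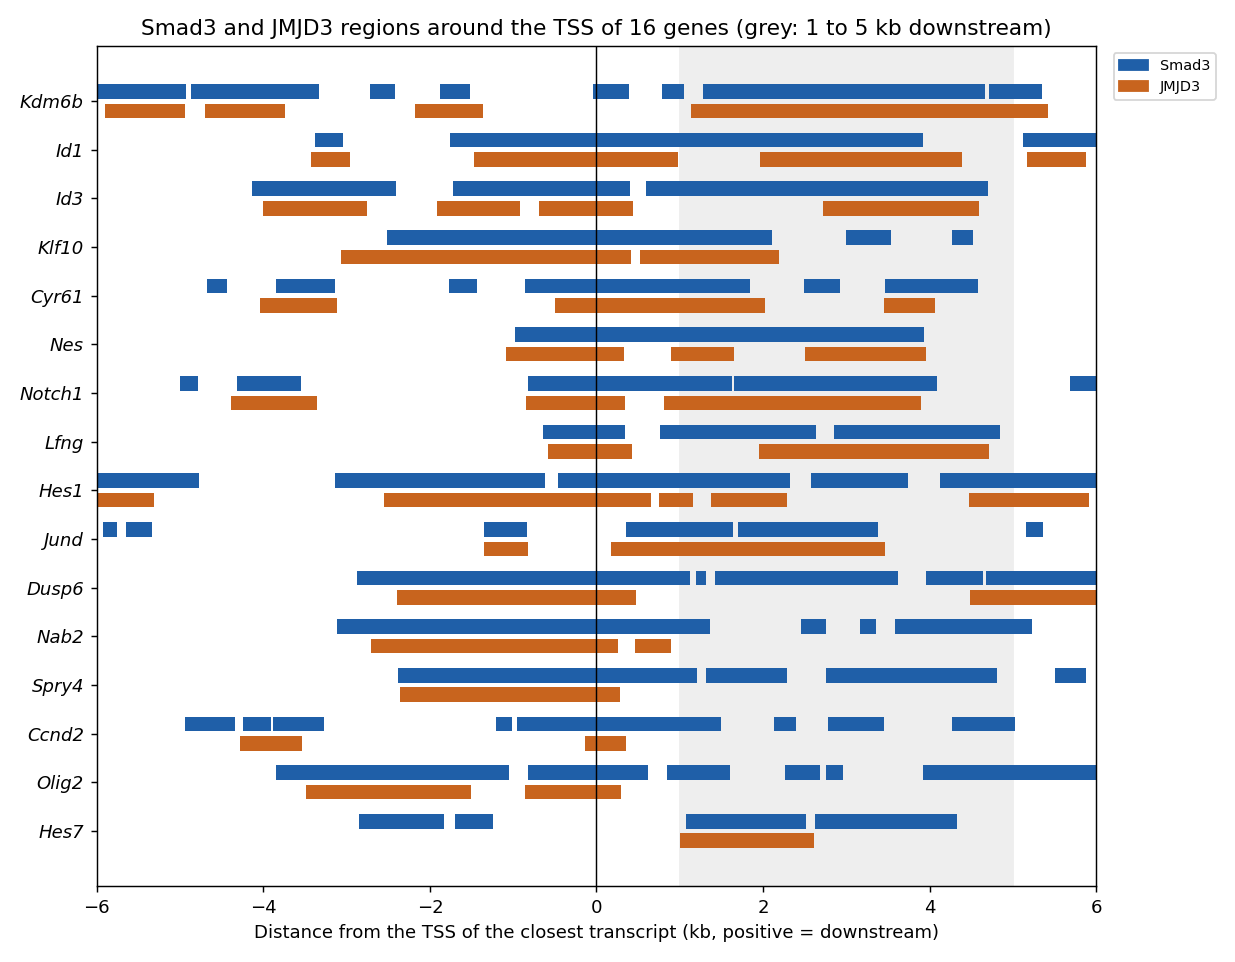
Smad3 regions (blue, upper bar of each pair) and JMJD3 regions (orange, lower bar) from 6 kb upstream to 6 kb downstream of the TSS of named genes, in kb, with the 1 to 5 kb downstream interval in grey. Kdm6b has bars of both inside the grey interval and no JMJD3 bar over the start, Nes and Id1 have 1 Smad3 bar running from before the start into the interval, and Nab2, Spry4, Ccnd2 and Olig2 have Smad3 bars there and no JMJD3 bar.

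At the named genes with the widest Smad3 regions, most of these regions began before the start of the gene, and that of Id3 after it. At Id1, an inhibitor of bHLH factors that answers to BMP and TGF-beta, the Smad3 region was 5680 bp wide, from -1758 to 3921 bp relative to the start, and the widest JMJD3 region holding a member peak was 2431 bp wide, from 1962 to 4392 bp. Smad3 and JMJD3 had 7 member peaks each, all but 1 shared in either list. At Nes the Smad3 region was 4910 bp wide with 15 peaks, from -973 to 3936 bp, and the widest of the JMJD3 regions, of 1450 bp, lay from 2507 to 3956 bp. Klf10, a TGF-beta-inducible repressor, had 4621 bp of Smad3 and 1670 bp of JMJD3. Id3 had a Smad3 region of 4111 bp beginning 595 bp after the start, and a JMJD3 region of 1880 bp from 2715 to 4594 bp. At each of these genes the Smad3 region was wider than the widest JMJD3 region holding a member peak. Each also had a JMJD3 region over its start without a member peak. That region was 2451 bp wide at Id1, from -1468 to 982 bp, and 3480 bp at Klf10, from -3068 to 411 bp. The contrast in width thus depends on how the JMJD3 list is split. Dusp6, a phosphatase that restrains ERK, had 12 Smad3 member peaks of which 2 were shared: a Smad3 region of 2190 bp from 1427 to 3616 bp met no JMJD3 peak, and the JMJD3 region of 2121 bp began 4487 bp after the start.

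Across all 1614 genes with both factors the order was the other way, with the Smad3 region wider at 640 genes and the JMJD3 region wider at 955. Notch1, the receptor, had adjoining Smad3 regions of 2441 bp each, the second from 1651 to 4091 bp, and a JMJD3 region of 3090 bp from 812 to 3901 bp. All 5 Smad3 and 4 JMJD3 member peaks were shared. Lfng, a glycosyltransferase that modifies Notch receptors, had 2000 bp of Smad3 and 2770 bp of JMJD3, with 7 of 9 Smad3 and 4 of 4 JMJD3 member peaks shared. Jund, a subunit of AP-1, had 1681 bp of Smad3 and 3290 bp of JMJD3. At Klhl21, a substrate adaptor of a ubiquitin ligase, the widest Smad3 region holding a member peak was 1281 bp wide and the JMJD3 region 3500 bp. At E2f1, a cell cycle transcription factor, the widths were 551 bp for Smad3 and 2630 bp for JMJD3. These widths depend on how a list is split: at E2f1 another Smad3 region, of 2411 bp from -1253 to 1157 bp, lay next to that of 551 bp from 1237 to 1787 bp, and the JMJD3 region ran from -842 to 1787 bp. Likewise the Smad3 regions of Jund, from 354 to 1634 bp and from 1704 to 3384 bp, lay within the JMJD3 region from 174 to 3463 bp, and other Smad3 regions lay along the JMJD3 region of Klhl21. The actin-binding protein gene Cnn3 had nearly equal regions, 2980 bp for Smad3 and 3000 bp for JMJD3. The widest regions of both factors overlapped at 1385 of the 1614 genes (85.8%).

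**Figure D4:**
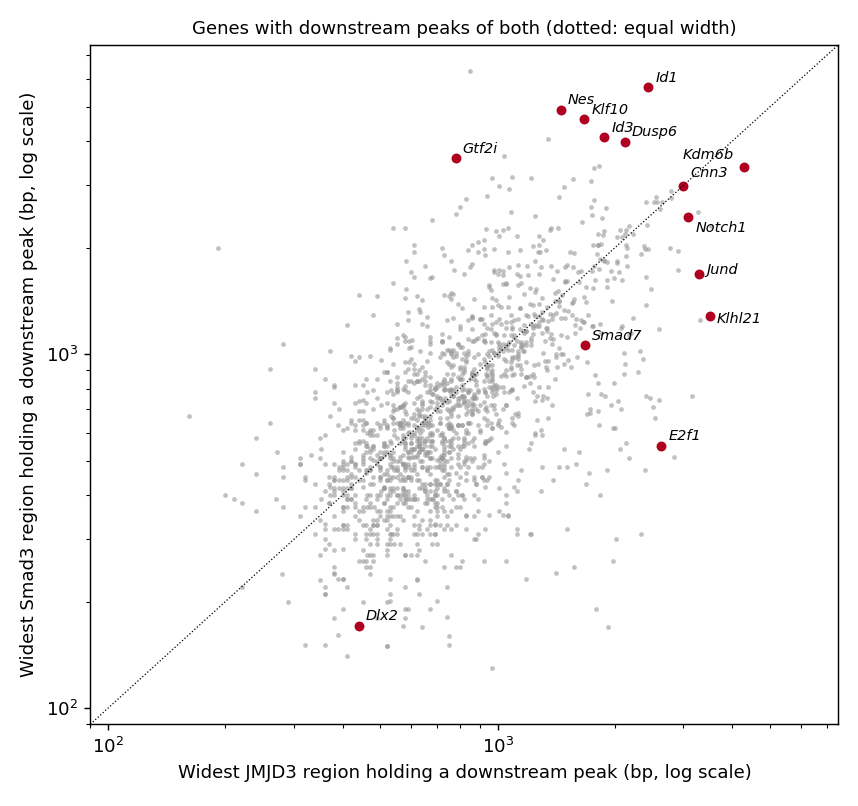
Width in bp, on log axes, of the widest Smad3 region (vertical) against the widest JMJD3 region (horizontal) holding a downstream peak, 1 grey point per gene with both; named genes are in red and the dotted line marks equal width. Id1, Nes, Klf10 and Id3 lie above the line and Kdm6b, Jund, Klhl21 and E2f1 below it, with 640 genes above and 955 below in all.

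At some genes Smad3 had wide regions or many member peaks and JMJD3 no downstream peak. Nab2 had a Smad3 region of 4480 bp from -3111 to 1368 bp and 6 member peaks, none shared, while JMJD3 covered the promoter and ended 898 bp after the start. Spry4, an inhibitor of receptor tyrosine kinase signalling, had 9 Smad3 member peaks, none shared, including a region of 2060 bp from 2752 to 4811 bp. JMJD3 ended 281 bp after the start of Spry4. Hunk, a kinase gene, had a Smad3 region of 2040 bp from -510 to 1529 bp that met no JMJD3 peak, with 1 member peak. Olig2, a bHLH factor of the oligodendrocyte and motor neuron lineages, had 7 Smad3 member peaks, none shared, with a region of 2330 bp from 3917 to 6246 bp. Its neighbour Olig1 had 6 Smad3 member peaks, also unshared. Ccnd2 and Ccnd1, which encode D-type cyclins, had 7 and 4 Smad3 member peaks with 0 shared. Fos and Nr4a1, immediate early transcription factors, had 3 and 4 Smad3 member peaks, 0 shared, and no downstream JMJD3 peak. Their widest Smad3 regions holding a member peak lay across the start and met a JMJD3 region there. They were 2130 bp at Fos, from -489 to 1640 bp, and 2481 bp at Nr4a1, from -995 to 1485 bp. At Olig2, Ccnd1, Ccnd2, Fos, Nr4a1, Nab2 and Spry4 JMJD3 peaks were listed at the promoter, between 2 and 4 per gene, whereas Olig1 had 0. The largest number of Smad3 member peaks under 1 gene name, 19, belonged to Rn4.5s, a small RNA with many near-identical copies in the genome. These peaks were counted over several annotated starts on chromosome 6 that share the name, and not around a single start. Within 1 kb of those starts lay 43 further Smad3 peaks, and JMJD3 had no peak in either interval. Reads from such copies cannot be assigned to 1 of them, so this count is uncertain.

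Smad3 regions that met no JMJD3 peak numbered 2801 of 4898, and JMJD3 regions that met no Smad3 peak 354 of 2242. The widest JMJD3 region of that kind, of 2230 bp on chromosome 10 from 79823761 to 79825990, was at Plk5, a polo-like kinase family gene with no peak of either list within 1 kb of its start. That region ran from 4558 to 6787 bp after the start, and 1 of its 4 peaks was a member. Next came Zfpm1, a GATA cofactor, with 1300 bp, Fstl3, a secreted antagonist of activin, with 1250 bp, Tmem8c, a membrane protein of myoblast fusion, with 1240 bp, and Kitl, the ligand of the Kit receptor, with 970 bp. At Fstl3 and Tmem8c 1 other JMJD3 member peak each did meet a Smad3 peak. Mepce, which caps the small RNA 7SK, had a JMJD3 region of 3050 bp that reached its promoter window and met a Smad3 peak, although no Smad3 midpoint fell in the interval.

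Downstream peaks also occurred where no promoter peak was listed. Of 3823 genes with a downstream peak of either list, 710 (18.6%, 95% CI 17.4 to 19.8) had no peak of either list within 1 kb of the start, 625 of the Smad3 and 370 of the JMJD3 genes. Hes7 had a Smad3 region of 1441 bp from 1077 to 2517 bp, another of 1710 bp from 2617 to 4326 bp and a JMJD3 region of 1610 bp from 1007 to 2616 bp, and its promoter, printed above, lay between Smad3 regions without being covered by one. Fbxl22, an F-box gene, had 1841 bp of Smad3 and 1870 bp of JMJD3, with 4 of 4 Smad3 and 3 of 3 JMJD3 member peaks shared. Dlg4, which encodes the postsynaptic scaffold PSD-95, had 1621 and 1910 bp with 6 of 6 and 3 of 3 shared. Ramp1, a receptor accessory protein, had 1631 and 1390 bp. At Dmrtb1, a doublesex-related factor, and Isg15, a ubiquitin-like protein of the interferon response, the Smad3 regions were narrower, 720 and 660 bp, than the JMJD3 regions of 1960 and 2531 bp. Gpr84, a receptor for fatty acids, had a Smad3 region of 1520 bp from 4359 to 5878 bp. It met a JMJD3 region from 4469 to 5548 bp, whose midpoint lay beyond 5 kb, and 3 of 4 Smad3 member peaks were shared.

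Genes of 14 pathway and cell type lists were counted beside the share of all coding genes. Their members were not tested, because the lists were chosen with earlier results of these data known. In the TGF-beta list 25 of 43 members (58.1%) had a downstream Smad3 peak, 21 (48.8%) a JMJD3 peak and 20 both, against 15.6%, 8.75% and 7.25% of all coding genes. The median of the widest Smad3 region was 1060 bp and that of the JMJD3 region 1370 bp, where all coding genes with a downstream peak had 485.5 and 681 bp. Of the 104 Smad3 peaks at its members 71 were shared (68.3%), against 46.6% of the 6116 at coding genes. Among ligands and their carriers, Ltbp3, which binds latent TGF-beta, had 1920 bp of Smad3 and 2340 bp of JMJD3, both across the promoter window, and Tgfb3 was the only member with JMJD3 alone. Among the signal carriers and inhibitors, Smad7, an inhibitory Smad, had 8 Smad3 member peaks, 7 of them shared, and 5 of 5 JMJD3 peaks shared. Its widest regions holding a member peak lay apart. That of Smad3, of 1060 bp, ran from 1313 to 2372 bp and that of JMJD3, of 1671 bp, from 2903 to 4573 bp. Smad3 itself had 3 Smad3 peaks and 1 JMJD3 peak, all shared. There too the widest regions holding a member peak lay apart, 661 bp of Smad3 from 750 to 1410 bp and 540 bp of JMJD3 from 2511 to 3050 bp. Each of these regions met another region of the other list. Smad2 and Smad4 had 0 downstream peaks in either list, although both had promoter peaks of both. Among target genes, Cyr61 and Ctgf, which encode secreted matrix proteins, had 2701 and 1141 bp of Smad3 and 2520 and 1370 bp of JMJD3. Tgif2, a corepressor of Smads, had 1901 and 2130 bp, and Cdkn1a, an inhibitor of cyclin-dependent kinases, 2940 and 1070 bp. Bhlhe40, a transcription factor, had 911 bp of Smad3 from 559 to 1469 bp, which met a JMJD3 region of 770 bp with its midpoint nearer the start, and Foxo3, another, had 560 bp of Smad3 that met no JMJD3 peak.

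**Figure D5:**
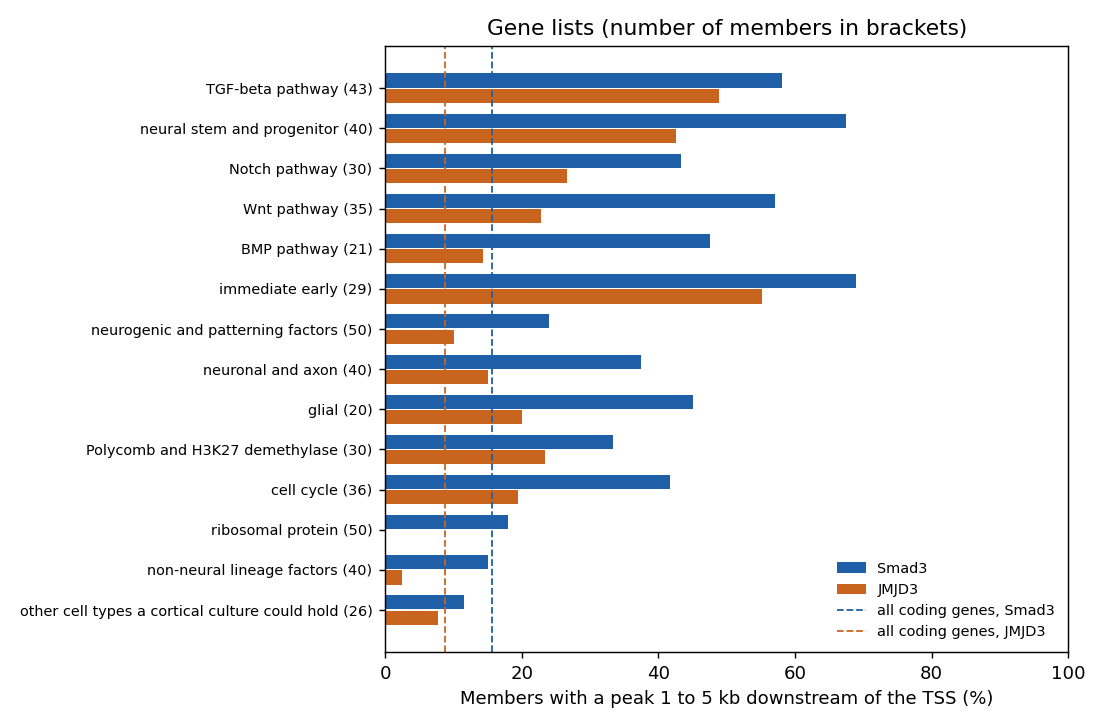
Percentage of the members of each gene list with a Smad3 peak (blue) or a JMJD3 peak (orange) 1 to 5 kb downstream of the TSS; dashed lines give the share of all coding genes, 15.6% and 8.75%. The TGF-beta, neural stem and immediate early lists have the longest bars of both factors, and ribosomal protein genes have no JMJD3 bar.

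Neural stem and progenitor genes had the factors together at 17 of 40 members (42.5%) and Smad3 at 27 (67.5%), against 7.25% and 15.6% of all coding genes. No member held JMJD3 alone, where 82.5% of all genes with downstream JMJD3 also had downstream Smad3. Beside Nes and Notch1, Hes1, the Notch-responsive repressor of neurogenesis, had 9 Smad3 member peaks with 4 shared and 4 JMJD3 peaks all shared. Its widest regions holding a member peak were 2780 bp for Smad3, from -461 to 2318 bp, and 1441 bp for JMJD3, from 4469 to 5909 bp. Slc1a3, the glutamate transporter GLAST of radial glia, had 1231 and 1670 bp. Sox2, a transcription factor of neural stem cells, had 4 Smad3 and 3 JMJD3 member peaks. Its widest regions holding a member peak were modest and lay apart, 580 bp of Smad3 from 3975 to 4554 bp and 571 bp of JMJD3 from 2565 to 3135 bp. Each met another region of the other list. In the Notch list 13 of 30 members had Smad3 (43.3%), 8 had JMJD3 (26.7%) and all 8 had both. Over all coding genes those shares were 15.6%, 8.75% and 7.25%. The median Smad3 region in the Notch list was 721 bp and the median JMJD3 region 1410.5 bp. Jag1, a Notch ligand, had 1611 and 1490 bp, and the DNA-binding partner of Notch, Rbpj, had a Smad3 region of 450 bp from 859 to 1308 bp that met a JMJD3 region whose midpoint lay within 1 kb of the start.

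Immediate early genes, which answer to growth factors within minutes, had the highest shares of all 14 lists. Smad3 was listed at 20 of 29 members (69.0%), JMJD3 at 16 (55.2%) and both at 16, against 15.6%, 8.75% and 7.25% of all coding genes. The median Smad3 region at these members was 1811 bp and the median JMJD3 region 1010.5 bp. The ERK phosphatase gene Dusp1 had 2000 bp of Smad3 and 2150 bp of JMJD3, and its nearer JMJD3 member midpoint lay 4131 bp after the start. Of the 84 Smad3 peaks at members 43 were shared (51.2%), near the 46.6% at all coding genes.

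In the list of factors that drive neuronal differentiation and patterning, few of the downstream Smad3 peaks were shared. Of 50 neurogenic and patterning genes 12 had Smad3 (24.0%), 5 had JMJD3 (10.0%) and 3 had both (6%), near or above the 15.6%, 8.75% and 7.25% of all coding genes, and 6 of their 36 Smad3 peaks were shared (16.7%), against 46.6% at all coding genes. Insm1, a factor of intermediate progenitors, had 1120 bp of Smad3 and 671 bp of JMJD3, and Dlx2, a factor of interneurons, 171 and 440 bp. Neurog2, a proneural factor of cortical projection neurons, had 1 JMJD3 region of 600 bp, from its promoter window onward, and no Smad3 peak in the interval. Dbx1, a spinal cord patterning factor, had no downstream or promoter peak, its nearest Smad3 midpoint being 26064 bp and its nearest JMJD3 midpoint 49934 bp away. Olig2 and Olig1, with 7 and 6 of these Smad3 peaks, are described above. Of 40 neuronal and axon genes 15 had Smad3 and 6 had JMJD3, with 10 of 34 Smad3 peaks shared. Ntn1, a guidance cue, had 1191 and 1091 bp, and Ncam1, a cell adhesion molecule, 2800 and 941 bp. The guidance gene Sema6a had 6 Smad3 member peaks and no downstream JMJD3 peak. Glial genes had Smad3 at 9 of 20 members and JMJD3 at 4. Cspg4, the NG2 proteoglycan of oligodendrocyte precursors, had 961 and 1520 bp, and Gfap, the filament of astrocytes, had 490 bp of Smad3 only.

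Smad3 was listed downstream more often than JMJD3 in each of the 14 lists, as it was over all coding genes (15.6% and 8.75%). Wnt genes had Smad3 at 20 of 35 members and JMJD3 at 8, and Lef1, a nuclear effector, had 2240 and 1030 bp. BMP genes had them at 10 and 3 of 21, and the ligand gene Bmp4 had 560 and 600 bp with no promoter peak. In the list of Polycomb subunits and H3K27 demethylases, 10 of 30 members had Smad3 and 7 had both. Of their 29 Smad3 peaks 20 were shared (69.0%), against 46.6% at all coding genes. Outside Kdm6b the members with both were led by Pcgf2 and Phc2, subunits of Polycomb repressive complex 1. They had 1270 and 1570 bp of Smad3 and 1490 and 951 bp of JMJD3. Cell cycle genes had Smad3 at 15 of 36 members and JMJD3 at 7.

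Ribosomal protein genes, active in every cell, had Smad3 downstream about as often as all coding genes, and no JMJD3. Smad3 promoter peaks were listed at 47 of 50 and JMJD3 promoter peaks at 34, and downstream Smad3 peaks at 9 of 50, where 15.6% of all coding genes had one, in regions with a median of 350 bp, and downstream JMJD3 at 0, where 8.75% of coding genes had one. None of their 16 downstream Smad3 peaks was shared. Ribosomal protein genes have many processed copies, and whether reads were split among them was not tested. Factors of non-neural lineages had Smad3 at 6 of 40 members (15.0%) and JMJD3 at 1 (2.50%), at or below the share of all coding genes. Markers of other cell types that a cortical culture could hold had Smad3 at 3 of 26 and JMJD3 at 2. Among them Foxj1, a factor of ciliated cells, had 1580 bp of Smad3 from 4628 to 6207 bp. Its widest JMJD3 region holding a member peak, of 1030 bp, lay apart from it, from 2118 to 3147 bp. Each met another region of the other list.

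MicroRNA genes were closest to some member peaks: 60 had downstream Smad3, 27 had JMJD3, 19 had both and 68 had either. No share of all microRNA genes was computed, so these counts do not show whether such genes had downstream peaks unusually often. Over all 16428 genes named in the files, 21.2% had downstream Smad3 and 11.9% downstream JMJD3. The widest Smad3 region holding a member peak, 6310 bp with 14 peaks on chromosome 3 from 88023071 to 88029380, belonged to Mir9-1. A member midpoint in that region lay 3694 bp after the annotated start. The region ran past the outer limit of 5 kb, and most of its width lay outside the interval. It overlapped a JMJD3 region of 850 bp from 88023631 to 88024480. Mir9-2 had 1230 bp of Smad3 and 1280 bp of JMJD3, and Mir9-3 had 931 bp of Smad3 and no downstream JMJD3. These loci encode miR-9, which is abundant in neural progenitors. Both copies of the gene for miR-125b, Mir125b-1 and Mir125b-2, had regions of both factors, 870 and 430 bp of Smad3 and 1210 and 640 bp of JMJD3. At Mir125b-2 the JMJD3 region of 640 bp met no Smad3 peak, although another JMJD3 member peak there did. Neither copy had a peak of either list within 1 kb of its annotated start. Their annotated transcripts were only 77 and 71 bp long, so the member peaks lay past the transcript end. Starts of longer primary transcripts were not assigned, so promoter occupancy of microRNA genes cannot be read from these distances. Mir715 had a Smad3 region of 5980 bp with 14 peaks, with 8 Smad3 member peaks and 6 Smad3 peaks within 1 kb of the annotated start. As at Rn4.5s, JMJD3 had no peak in either interval. Whether reads at Mir715 came from repeated copies was not tested, so this region is uncertain. The mature sequences are shown because loci with different peaks encode the same product, with the seed (bases 2 to 8) in capitals, from RefSeq, where 60 of the 68 genes were matched.
mmu-miR-9-5p: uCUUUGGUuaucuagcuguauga
mmu-miR-125b-5p: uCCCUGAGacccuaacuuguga

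Member peaks were spread over the genome. Their share of all peaks on a chromosome ranged between 5.23% on chromosome 13 and 8.42% on chromosome 15 for Smad3, and between 2.98% on chromosome 16 and 6.76% on chromosome 19 for JMJD3. The Y chromosome had 5 Smad3 and 7 JMJD3 peaks and no member.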

How the data were processed

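ChIP-seq peak lists of 2 libraries, Smad3 and JMJD3, were used, and groups follow the antibody named in the labels. CASAVA, Bowtie 0.12.7, MACS 1.4 and build mm9 appear in the submitters' processing notes; peak thresholds and the part played by the input library were not given in the sources at hand. The files deposited by the authors hold, per the file headers, the position of each peak, its signed distance from the closest TSS and that gene's transcript, symbol and Entrez ID. They hold no score or read number, so depth is unknown and region width took the place of the planned score.

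Peaks of a list at most 10 bp apart were joined into regions, and overlap meant at least 1 bp. Distance classes were compared by two-sided Fisher exact tests on regions, with Benjamini-Hochberg adjustment over the 2 lists, in SciPy 1.17.1, and the script was checked on simulated data. Python 3.11.15, pandas 2.3.3, NumPy 2.4.6, statsmodels 0.14.6 and matplotlib 3.10.9 were used. Coding genes were 20949 entries of a RefSeq table on GRCm38.p6, matched by Entrez ID and not by position; 16331 of 16428 named genes matched.

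The interval, the gene lists and the rule for named genes were chosen with earlier results of these data known. The rule took the genes with the widest regions in each list, in both, without the other list and without promoter peaks, those with most member peaks, and up to 6 members per gene list, with some genes always included. Predicted genes and microRNAs were skipped by the rule, and microRNAs were chosen after their values were seen. Not every gene chosen in this way is described. Alternatives covered overlap, joining, width, distance and gene background.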

Additional observations from a re-analysis of the deposited data

How the results depend on the processing

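In all, 10 values were recomputed under 52 alternatives, of which 23 were counted as unchanged. For odds ratios this meant direction and call, and not size. Counted among them were Smad3 odds ratios of 0.883 at 2 to 5 kb and 0.661 against regions beyond 5 kb. Both lay outside the interval of the main value, 0.718 to 0.859. The Smad3 odds ratio of overlap, 0.785 downstream against upstream, turned to 1.003 (Fisher exact test, p = 0.961) when peaks at most 500 bp apart were joined. Under the other alternatives set against upstream regions it stayed between 0.767 and 0.883. With regions beyond 5 kb in place of upstream ones it was 0.661. The JMJD3 odds ratio, 1.05, turned to 0.963 with 50% reciprocal overlap and 0.933 with single peaks, both past no threshold, and was 1.58 with regions beyond 5 kb in place of upstream ones, an alternative added after the data were seen. The cause was not tested. The share of Smad3 peaks overlapping JMJD3, 46.1%, was 27.3% with 50% reciprocal overlap, 36.0% with midpoints within 200 bp, 43.0% by region, 66.6% in the wider 50% of peaks, 48.2% at 2 to 5 kb and 43.4% without contact with the promoter window. The JMJD3 share, 82.0%, was 57.8%, 72.0%, 84.3% and 90.2% under the first 4 of these. The Smad3 ratio of downstream to upstream peaks, 1.51, was 1.35 at 2 to 5 kb. The share of coding genes with a downstream Smad3 peak, 15.6%, was 21.3% of genes closest to any peak, 6.28% in the wider 50% of peaks, 9.57% at 2 to 5 kb and 13.0% without promoter contact, and for JMJD3, 8.75%, it was 11.9%, 3.90%, 5.50% and 6.71%. Promoter occupancy of downstream genes was 77.6% for Smad3 and 63.8% for JMJD3 with a 500 bp promoter window, 78.0% and 65.9% in the wider 50% of peaks, and 76.9% and 64.4% at 2 to 5 kb. No paired analysis was possible because each antibody has 1 library. With depth unknown, an interval without a peak does not show that the factor was absent.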
